A study of Mus musculus with 9 samples.

Results

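Reactive gliosis is the response of glia to injury, and 9 of its genes are described here in the retina of mice with oxygen-induced retinopathy (OIR). The genes were chosen by name: the glial intermediate filaments Gfap, Vim, and Nes, the secreted acute-phase proteins Serpina3n and Lcn2, the matrix receptor Cd44, the matrix protein Tnc, and the astrocyte lineage genes Pax2 and Pdgfra. All 9 were found among the 54532 genes counted, and all 9 were among the 17540 genes that passed the filter on low counts. Bulk RNA-Seq was performed on the retina of 9 wild-type C57BL/6 mice at P17, 3 in each group. Control mice were kept in room air and are labelled Control+DMSO (mice 1, 6, and 7). OIR mice, labelled Hypoxia+DMSO (mice 3, 5, and 6), were exposed to hyperoxia as pups and returned to room air, after which the retina becomes ischemic, and received the vehicle in the eye at P12. Treated OIR mice, labelled Hypoxia+32-134D (mice 2, 5, and 10), went through the same model and received 32-134D, a small molecule that lowers HIF-1 and HIF-2, the transcription factors of the hypoxia response, at P12. The label gives its dose as 70 ng, whereas the injection protocol gives 70 ng/μl. Mouse numbers are those in the labels, and equal numbers in different groups are not the same animal.

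The macroglia of the retina are Müller glia and astrocytes. Müller glia span the whole retina, while astrocytes enter from the optic nerve and lie among the nerve fibers and vessels of the inner surface. In both, injury, ischemia, and cytokines that act through STAT3 raise the filament protein GFAP, the classical sign of gliosis. OIR is known for Müller gliosis and for loss of astrocytes from the region without vessels. In bulk tissue, fewer cells of a type and less RNA per cell cannot be told apart.

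Total counts were 16028731 to 27213184 per mouse, so precision was set by the spread among mice for all but the lowest of the 9 genes, Pax2, with 17 to 68 counts per mouse. The neuronal and photoreceptor markers of retina were all present, with 31490 to 60470 CPM summed over 8 genes. CPM are counts scaled to a common library size, here after TMM, which corrects that size for composition. Treated OIR mouse 2 stood apart. Crystallin genes of the lens held 15.8% of its counts and at most 0.186% in any other mouse, and its values are therefore given separately throughout. The summed fibroblast markers were highest in control mouse 1, at 907 CPM over 6 genes, against 38.4 to 437 CPM in the other mice. Col1a1 (487 CPM) and Col1a2 (360 CPM) made up most of that sum. Lum was also highest in control mouse 1, but Dcn, Pdgfrb, and Fbln1 were not. Fbln1 was at 12.2 CPM there and at up to 228 CPM in other mice. The biological coefficient of variation was lowest in OIR mice (0.232), higher in control mice (0.257), and highest in treated OIR mice (0.362). Xist and Y-linked counts put 1 female in the control group, 1 in the OIR group, and 2 in the treated OIR group.

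The promoters of 3 members are shown here because the study concerns a HIF inhibitor and because these members had higher CPM in every OIR mouse than in any control mouse, with no annotated exon inside the window. Each sequence is the 250 bases upstream of the start site from RefSeq (build GRCm38.p6), written 5′ to 3′ on the strand of the gene, with capitals for any match to the motifs searched. Gfap lies on the minus strand at chr11:102897201-102897450, which is inside the longer gene annotated in the deposited table. Cd44 is on the minus strand at chr2:102901666-102901915, and Pdgfra on the plus strand at chr5:75152001-75152250.
Gfap: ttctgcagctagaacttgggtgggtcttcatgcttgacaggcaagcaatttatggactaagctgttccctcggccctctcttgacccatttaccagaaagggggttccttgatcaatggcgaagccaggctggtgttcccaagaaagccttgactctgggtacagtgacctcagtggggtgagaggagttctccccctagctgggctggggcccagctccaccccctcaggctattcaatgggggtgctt
Cd44: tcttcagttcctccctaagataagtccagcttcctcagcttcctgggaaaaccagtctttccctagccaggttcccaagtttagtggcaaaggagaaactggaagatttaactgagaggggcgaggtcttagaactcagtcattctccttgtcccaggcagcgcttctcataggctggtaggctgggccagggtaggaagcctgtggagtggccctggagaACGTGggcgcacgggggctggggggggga
Pdgfra: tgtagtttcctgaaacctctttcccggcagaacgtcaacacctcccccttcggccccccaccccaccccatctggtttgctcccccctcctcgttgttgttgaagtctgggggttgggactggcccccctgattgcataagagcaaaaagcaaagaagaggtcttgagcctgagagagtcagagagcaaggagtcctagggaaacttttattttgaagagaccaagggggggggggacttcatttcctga
The capitals in Cd44 mark ACGTG, the core of a hypoxia response element, which starts 29 bases before the start site. It is the only one of the 12 RefSeq windows of the 9 members that holds ACGTG on either strand, and 16.6% of all 32851 promoters hold it. The related GCGTG was found in the 3 windows of Pax2 and in 28.2% of all promoters. The STAT-type motif TTCNNNGAA was found in 1 window of Pax2 and in 7.02% of all promoters. The AP-1 motif TGANTCA, held by 6.75% of all promoters, was found in no window of the members. CCAAT (33.8% of all promoters) was found in the window of Vim, and TATAAA (12.4%) in those of Vim and Tnc, the latter with 2 overlapping windows. These are matches of letters, and regions further away were not searched.

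The first comparison asked how the 9 genes differ between OIR and control retina. Of the 9, 8 had a log2 fold change above 0, as did 53.5% of all genes tested. The median was 0.90 beside 0.03 over all genes tested. None passed an adjusted p of 0.05 in edgeR's quasi-likelihood test of all 9 mice, in which 0.941% of all genes passed. An unadjusted p below 0.05 was reached by 4 of the 9 members and by 23.8% of all genes. Nes alone among the members was called by DESeq2 on all 9 mice (13.1% of genes called), by limma-voom (13.1%), by edgeR on these 2 groups (10.3%), and by edgeR with no filter (1.75%). DESeq2 on these 2 groups called 3 members, Nes, Cd44, and Pdgfra, and 16.6% of genes. Without treated OIR mouse 2, edgeR called 2 members, Nes and Cd44, and 12.5% of genes. Every OIR mouse was above every control mouse for 4 of the 9 members, Gfap, Nes, Cd44, and Pdgfra, a separation seen for 15.9% of all genes tested.

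Gfap (ENSMUSG00000020932, chromosome 11, 102887336 to 102900912), the filament of reactive astrocytes and Müller glia, was at 217, 157, and 58.2 CPM in control mice 1, 6, and 7. In OIR mice 3, 5, and 6 it was at 231, 316, and 703 CPM. The groups did not overlap, but OIR mouse 3 lay just above control mouse 1, and OIR mouse 6 was the highest of all 9 mice. Gfap differed by a log2 fold change of 1.53 with a standard error (SE) of 0.63 (edgeR adjusted p = 0.181), and by 0.93 when OIR mouse 6 was left out. Gfap overlaps the annotated gene Gm26668 on the opposite strand, which held 0.465% as many counts.

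Vim (ENSMUSG00000026728, chromosome 2, 13573927 to 13582826), the filament protein vimentin, present in resting Müller glia as well, was at 557, 333, and 236 CPM in control mice 1, 6, and 7 and at 559, 530, and 727 CPM in OIR mice 3, 5, and 6. Control mouse 1 lay between OIR mice 5 and 3, so the groups overlapped (log2 fold change 0.69, SE 0.41, edgeR adjusted p = 0.336).

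Nes (ENSMUSG00000004891, chromosome 3, 87971078 to 87980451) encodes nestin, a filament of neural progenitors that reactive glia take up again. It was at 19.6, 14.3, and 13.3 CPM in control mice 1, 6, and 7 and at 35.3, 27.1, and 34.4 CPM in OIR mice 3, 5, and 6. The groups were clearly apart, and each was tight. Nes had the lowest p of the 9 genes, and its log2 fold change was 1.03 (SE 0.25, edgeR adjusted p = 0.0716). Its adjusted p ranged over the alternatives from 4.95e-05 with DESeq2 on these 2 groups to 0.224 in edgeR without control mouse 7, and was 0.0419 in edgeR with no filter.

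Serpina3n (ENSMUSG00000021091, chromosome 12, 104406729 to 104414329), a secreted protease inhibitor, was at 310, 97.2, and 9.22 CPM in control mice 1, 6, and 7. In OIR mice 3, 5, and 6 it was at 61.9, 107, and 461 CPM. The 3 control mice alone covered a range of 33.6-fold, and OIR mice 3 and 5 lay within it. The log2 fold change of 0.59 had an SE of 1.46 (edgeR adjusted p = 0.845) and was -0.72 without OIR mouse 6. The 10 other Serpina3 genes searched, near-identical copies that could share reads with it, summed to at most 3.42 CPM in any mouse.

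Lcn2 (ENSMUSG00000026822, chromosome 2, 32384633 to 32388252) encodes lipocalin 2, an iron-carrier-binding protein secreted by reactive astrocytes and by neutrophils. It was at 79.2, 73.6, and 16.5 CPM in control mice 1, 6, and 7 and at 55.4, 99.1, and 461 CPM in OIR mice 3, 5, and 6. OIR mouse 3 was below control mice 1 and 6, and OIR mouse 6 was far above all of these. Lcn2 had a log2 fold change of 1.86 (SE 1.62, edgeR adjusted p = 0.519), and of 0.45 without OIR mouse 6. The 8 neutrophil markers summed to 2.62 to 7.18 CPM in OIR and 0.149 to 1.92 CPM in control mice. Of the defining ones Mpo was at 0 in all mice, Ly6g and Elane were each at most 0.193 CPM, and S100a8 and S100a9 made up most of the sum in OIR mice. The part of neutrophils in the Lcn2 values was not tested.

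Cd44 (ENSMUSG00000005087, chromosome 2, 102811141 to 102901665), the hyaluronan and osteopontin receptor, whose promoter is the one above with ACGTG, was at 32.2, 19.7, and 11.7 CPM in control mice 1, 6, and 7. It was at 42.0, 47.2, and 118 CPM in OIR mice 3, 5, and 6. The groups did not overlap, and OIR mouse 6 was again the highest. In log2 fold change the difference was 1.69 (SE 0.73, edgeR adjusted p = 0.198), and 1.07 without OIR mouse 6. Cd44 is also expressed by leukocytes, and the summed level of 8 microglia and macrophage markers was 103 to 197 CPM in OIR and 52.6 to 174 CPM in control mice, groups that overlap. Their part in the Cd44 values was not tested.

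Tnc (ENSMUSG00000028364, chromosome 4, 63959785 to 64047015), the matrix glycoprotein tenascin-C, was the member with a lower fitted value in OIR. It was at 48.9, 22.0, and 20.3 CPM in control mice 1, 6, and 7 and at 19.8, 23.2, and 29.1 CPM in OIR mice 3, 5, and 6. Control mouse 1, where the fibroblast sum was highest through Col1a1 and Col1a2, was apart from the rest, and the other values intermingled. The part of fibroblasts in the Tnc values was not tested. The log2 fold change was -0.34 (SE 0.32, edgeR adjusted p = 0.546) and became 0.18 without control mouse 1.

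Pax2 (ENSMUSG00000004231, chromosome 19, 44756045 to 44837871) encodes a transcription factor that in the retina marks astrocytes and their precursors. It was at 1.29, 1.19, and 1.10 CPM in control mice 1, 6, and 7 and at 1.28, 3.17, and 2.25 CPM in OIR mice 3, 5, and 6. OIR mouse 3 was level with control, while the other OIR mice were above it (log2 fold change 0.90, SE 0.41, edgeR adjusted p = 0.226).

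Pdgfra (ENSMUSG00000029231, chromosome 5, 75152292 to 75198215) encodes the receptor through which PDGF-A from ganglion cells drives astrocyte growth in the developing retina. It was at 26.0, 28.6, and 22.1 CPM in control mice 1, 6, and 7 and at 58.3, 31.7, and 37.4 CPM in OIR mice 3, 5, and 6. No values overlapped, and here OIR mouse 3, not mouse 6, was the highest. The log2 fold change was 0.73 (SE 0.26, edgeR adjusted p = 0.139). Pdgfra also marks oligodendrocyte precursors and fibroblasts. The 9 oligodendrocyte markers summed to 103 to 116 CPM in OIR and 92.2 to 97.0 CPM in control mice, which did not overlap and lay in the same direction as Pdgfra. Cnp and Mbp made up most of that sum, Sox10 was at most 2.24 CPM in any mouse, and Olig2 was at 0 in all but 1 mouse. The fibroblast list was 147 to 437 CPM in OIR and 38.4 to 907 CPM in control mice. The part of these cells was not tested.

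**Figure D1:**
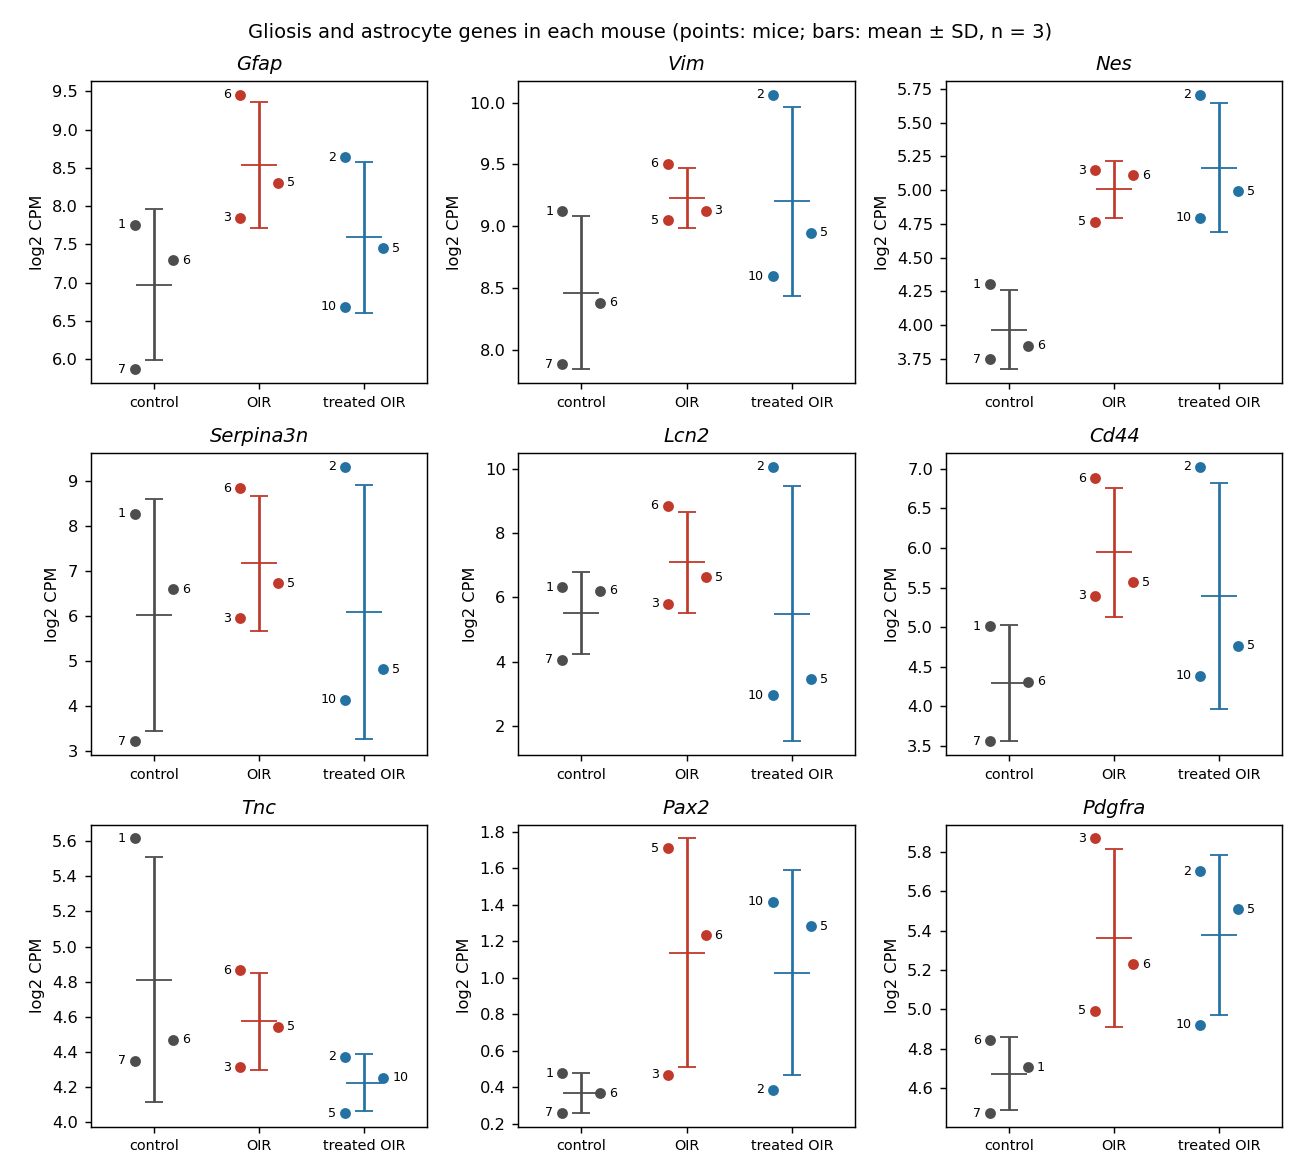
Log2 CPM (vertical axis, prior count 2) of each of the 9 genes in control, OIR, and treated OIR mice, with 1 point per mouse numbered as in the labels, and bars for the mean ± SD (n = 3). Nes and Pdgfra were above control in all 6 mice of the OIR model, as were genes of other lists. Serpina3n and Lcn2 spread over several log2 units within a group.

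Divided by the gene length in the table, the levels of the members in control retina were ordered as follows, in mean CPM per kilobase ± SD (n = 3). Vim was the highest at 79.2 ± 34.7, followed by Serpina3n at 67.2 ± 74.8, Gfap at 34.1 ± 19.0, and Lcn2 at 21.5 ± 13.2. Neighbors in this order were within their spread of each other. The remaining genes were much lower, with Tnc at 3.91 ± 2.06, Cd44 at 3.13 ± 1.53, Pdgfra at 2.55 ± 0.33, and Nes at 2.46 ± 0.53, again with overlapping spreads. Pax2 was the lowest at 0.220 ± 0.018, and its highest control mouse (0.239) was below the lowest control value of any other member (1.72, for Cd44). For Serpina3n the gap to Pax2 was smaller than the SD of Serpina3n. In OIR retina, Vim was at 128 ± 22.5, Serpina3n at 102 ± 106, Gfap at 98.8 ± 59.6, and Lcn2 at 78.3 ± 85.0, and Pax2 was still the lowest at 0.413 ± 0.174.

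The second comparison asked how treated OIR differs from control retina. None of the 9 members passed an adjusted p of 0.05 in edgeR, where 0.0228% of all genes did. An unadjusted p below 0.05 was reached by 2 members, Nes and Pdgfra, and by 18.6% of all genes. Nes alone among the members was called by DESeq2 on all 9 mice (6.14% of genes called), by DESeq2 on these 2 groups (2.57%), and by limma-voom (5.28%). Nes and Pdgfra were also the 2 members for which every treated OIR mouse was above every control mouse, a separation seen for 12.8% of all genes tested. Without control mouse 1, 5 members were separated in this way, as were 18.9% of all genes.

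Nes was at 52.1, 31.7, and 27.7 CPM in treated OIR mice 2, 5, and 10, all above the control range of 13.3 to 19.6 CPM. Its log2 fold change against control was 1.23 (SE 0.25, edgeR adjusted p = 0.102), and it was 0.91 without treated OIR mouse 2. Pdgfra was at 52.0, 45.4, and 30.2 CPM in the same mice, with the lowest of them close to the top of control (log2 fold change 0.73, SE 0.26, edgeR adjusted p = 0.206). Both genes were thus above control in all 6 mice of the OIR model, with or without the inhibitor. So were genes of the other lists described below, among them Slc1a3, Itga9, and Kdr, so the trait is not particular to Nes and Pdgfra. The share of all genes tested that were above control in all 6 mice was not counted. Pax2 was at 1.21, 2.33, and 2.57 CPM, with mouse 2 inside the control range and mice 5 and 10 above it (log2 fold change 0.77, SE 0.42, edgeR adjusted p = 0.349).

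The other members were divided between mouse 2 and its group mates. The part of lens RNA in the values of mouse 2 was not tested. Gfap was at 398 CPM in treated OIR mouse 2 and at 175 and 103 CPM in mice 5 and 10, which lay inside the control range. The log2 fold change of Gfap against control was 0.64 (SE 0.62, edgeR adjusted p = 0.592) and was -0.06 without mouse 2. Vim was at 1071, 493, and 387 CPM (log2 fold change 0.79, SE 0.41, edgeR adjusted p = 0.329), again with mice 5 and 10 inside the control range, and its log2 fold change was 0.23 without mouse 2. Cd44 was at 130, 27.05, and 20.8 CPM, and its log2 fold change of 1.48 (SE 0.73, edgeR adjusted p = 0.306) was 0.16 without mouse 2.

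The split was widest for the secreted proteins. Lcn2 was at 1079 CPM in treated OIR mouse 2 and at 10.9 and 7.61 CPM in mice 5 and 10, a range of 142-fold within a group. Mouse 2 was the highest of all 9 mice and the others were below every control mouse. The fitted log2 fold change against control was 2.69 (SE 1.67, edgeR adjusted p = 0.406), whereas the group means of log2 CPM were 5.49 in treated OIR and 5.52 in control, and without mouse 2 the fit gave -2.62. Serpina3n was at 643, 28.1, and 17.6 CPM, with mice 5 and 10 in the lower part of the control range. Its log2 fold change of 0.72 (SE 1.46, edgeR adjusted p = 0.816) was likewise -2.62 without mouse 2. Tnc was at 20.6, 16.5, and 19.0 CPM, with mice 5 and 10 below every control mouse (log2 fold change -0.71, SE 0.32, edgeR adjusted p = 0.277), and its log2 fold change was -0.18 without control mouse 1.

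**Figure D2:**
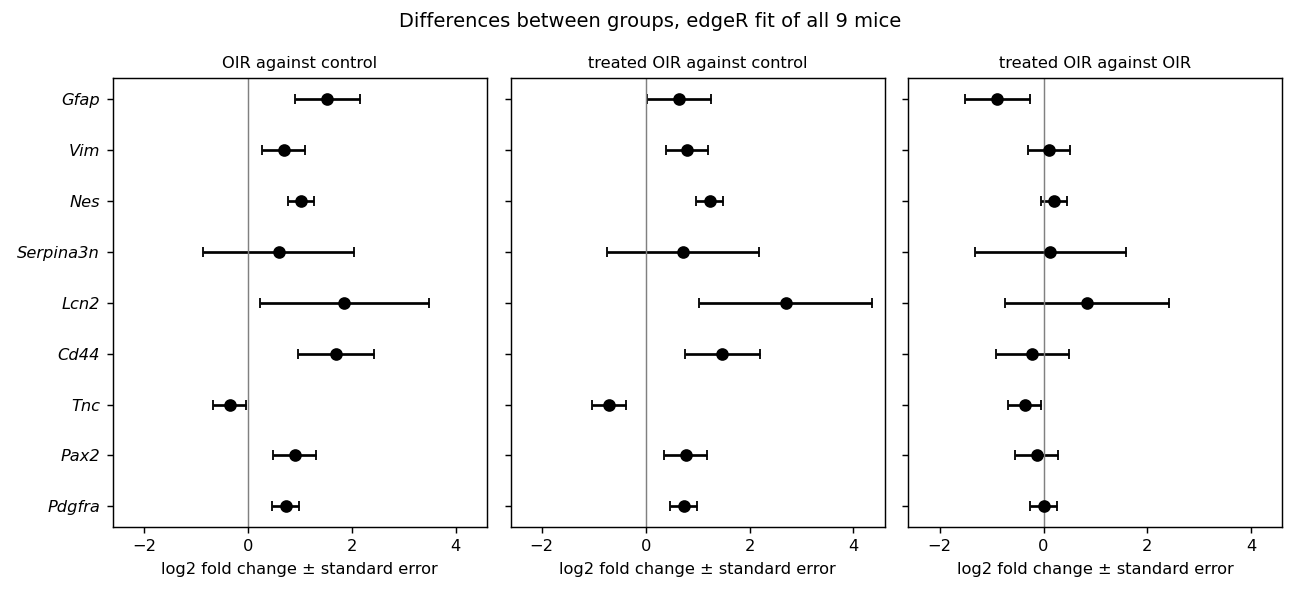
Log2 fold change (horizontal axis) of the 9 genes in the 3 comparisons, from edgeR's fit of all 9 mice, with bars of 1 standard error. Lcn2 and Serpina3n have the widest bars, and Nes has a narrow bar well above 0 in both comparisons with control.

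The third comparison, of treated OIR with OIR retina, bears on the inhibitor. It shares its OIR mice with the first comparison and its treated mice with the second. None of the 9 members passed, none had an unadjusted p below 0.05 (4.69% of all genes did), and neither DESeq2 nor limma-voom called any of them. Lcn2 was given no p by DESeq2 here, nor in the second comparison, nor by DESeq2 on all 9 mice in the first. edgeR called 0% of all 17540 genes, DESeq2 called 31 on all 9 mice and 73 on the 2 groups, and limma-voom called 1. The fitted log2 fold changes were -0.89 for Gfap (SE 0.62), -0.36 for Tnc (0.32), -0.22 for Cd44 (0.71), and -0.13 for Pax2 (0.41). They were 0.10 for Vim (SE 0.41), 0.20 for Nes (0.25), 0.13 for Serpina3n (1.45), 0.83 for Lcn2 (1.58), and 0.0016 for Pdgfra (0.26), each with an edgeR adjusted p of 1.0. No member separated the groups, against 9.13% of all genes in either direction.

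Treated OIR mouse 2 was above every OIR mouse for 5 members, Vim, Nes, Serpina3n, Lcn2, and Cd44, and was so for 27.0% of all genes tested. Crystallin genes held 15.8% of its counts, and the part of lens RNA in its values, Vim included, was not tested. Treated OIR mice 5 and 10 were below every OIR mouse for 6 members, Gfap, Vim, Serpina3n, Lcn2, Cd44, and Tnc. With mouse 2 left out, 17.1% of all genes tested were lower in both treated mice than in every OIR mouse, a choice made after the values were seen. Without it the log2 fold change against OIR was -4.45 for Lcn2 (SE 1.05, edgeR adjusted p = 0.190), -3.17 for Serpina3n (1.30, adjusted p = 0.339), -1.56 for Gfap (0.60, adjusted p = 0.309), and -1.50 for Cd44 (0.52, adjusted p = 0.267). None of the 9 passed in that fit either. These 4 members had an unadjusted p below 0.05, as did 13.0% of all genes in that fit, and wherever another alternative gave an adjusted p for them it was higher, up to 1.0. The microglia and macrophage list was at 56.6 to 64.8 CPM in treated OIR and 103 to 197 CPM in OIR mice, and the neutrophil list at 0.154 to 2.47 and 2.62 to 7.18 CPM. Both sums were lower in all 3 treated mice, mouse 2 included, than in every OIR mouse. For the neutrophil list the gap was narrow, at 2.47 CPM in treated OIR mouse 2 and 2.62 CPM in OIR mouse 3. Of its 8 genes, 6 were below 1 CPM in all mice, and S100a9 was at 1.14 and 1.07 CPM in these 2 mice. The part of these cells in the Lcn2 and Cd44 values was not tested. For Serpina3n and Lcn2 the fit of all 9 mice and the means of log2 CPM differ in sign, since the latter were 6.10 and 5.49 in treated OIR and 7.18 and 7.09 in OIR mice. Nes (-0.09) and Pdgfra (-0.14) stayed close to their OIR level without mouse 2.

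**Figure D3:**
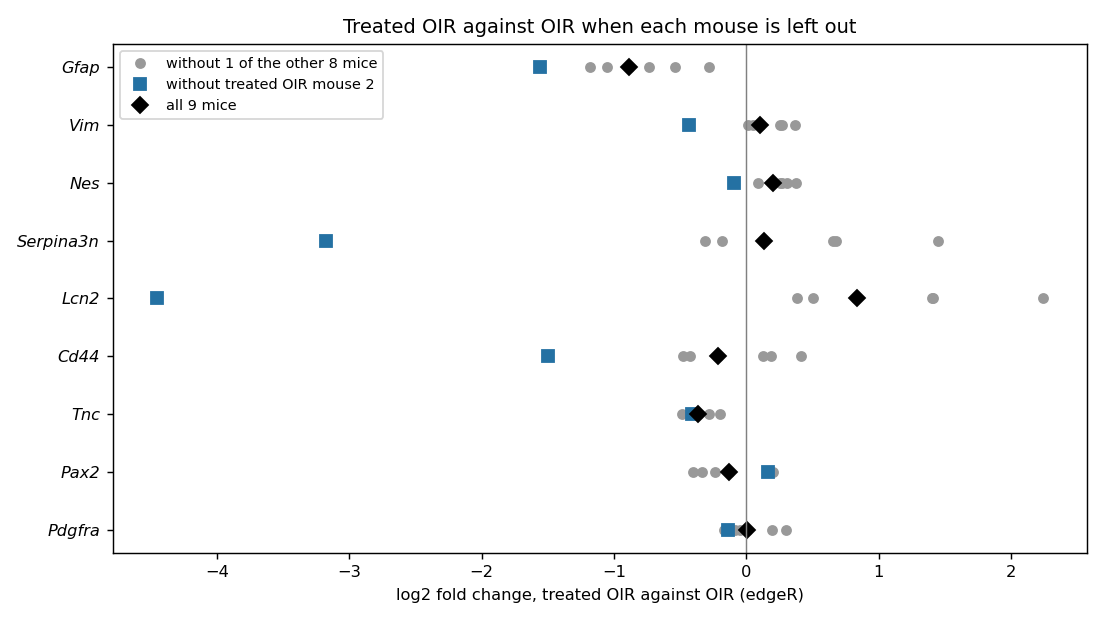
Log2 fold change of treated OIR against OIR (horizontal axis, edgeR) for each gene, in the fit of all 9 mice (diamonds), without treated OIR mouse 2 (squares), and without each of the other 8 mice (circles). Lcn2 moves from 0.83 to -4.45 and Serpina3n from 0.13 to -3.17 when mouse 2 is left out, whereas Pdgfra, Nes, and Tnc move little.

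The order of the mice was shared by several members. OIR mouse 6 and treated OIR mouse 2 were each among the 3 highest mice for 7 of the 9 genes. They held the first and second ranks for Gfap, Vim, Serpina3n, Lcn2, and Cd44. Control mouse 7 was the lowest of all mice for 7 genes, the exceptions being Lcn2 and Tnc. Control mouse 1 was the highest control mouse for every member but Pdgfra. The shares of all genes tested with these ranks were not counted, so the order is not shown to be particular to the members. Over all genes tested, treated OIR mouse 2 was above every OIR mouse for 27.0%.

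**Figure D4:**
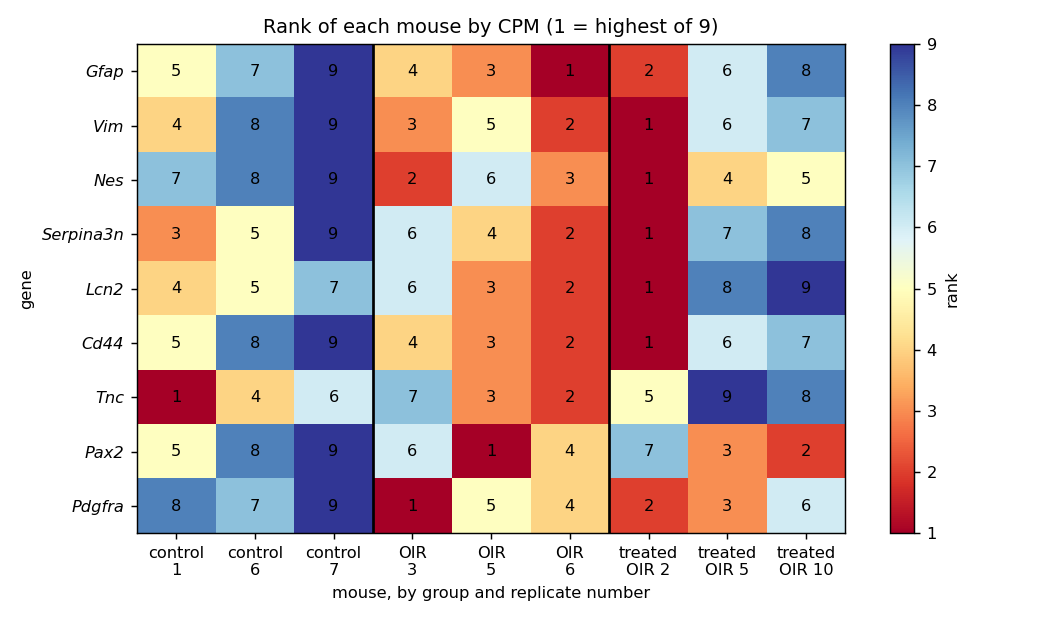
Rank of each mouse (columns, by group and number) for each gene (rows) by CPM, from 1 for the highest to 9 for the lowest. OIR mouse 6 and treated OIR mouse 2 hold ranks 1 and 2 for Gfap, Vim, Serpina3n, Lcn2, and Cd44, and control mouse 7 holds rank 9 for 7 genes. The shares of all genes tested with these ranks were not counted.

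The same pair of mice had the lowest Rbpms, a ganglion cell marker, at 10.3 CPM in OIR mouse 6 and 9.13 CPM in treated OIR mouse 2, against 25.4 to 60.9 CPM in the others. The lens list was at 33.7 CPM in OIR mouse 6 and 100300 CPM in treated OIR mouse 2. The endothelial and pericyte list was at 379 and 326 CPM in these mice, at 341 to 371 CPM in control mice, and at 443 to 727 CPM in the other mice of the model. Kdr made up most of that sum in this pair, at 281 and 207 CPM. For Cldn5, Rgs5, Kcnj8, Abcc9, and Cdh5 both mice were below every other mouse, control mice included. Cldn5 was at 17.4 and 10.4 CPM against 50.7 to 111 CPM, and Rgs5 at 38.3 and 47.1 CPM against 113 to 321 CPM. Pecam1 and Notch3 were below every other mouse in OIR mouse 6 only, and Kdr in neither. The part of these differences in the gliosis values was not tested.

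Spread within groups set the members apart from each other. The pooled SD of log2 CPM within groups was 2.58 for Lcn2 and 2.37 for Serpina3n, higher than for 99.8% and 99.7% of all genes tested. It was 1.04 for Cd44 and 0.94 for Gfap, higher than for 94.6% and 92.4% of genes. Vim, Pax2, Tnc, Pdgfra, and Nes followed with 0.59, 0.49, 0.44, 0.37, and 0.35, all above the median gene at 0.26. Nes and Pdgfra, which were above control in all 6 mice of the model, were the least variable of the 9. Groups separate more readily where spread is low, so these traits are not independent. The share of all genes above control in all 6 mice was not counted.

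**Figure D5:**
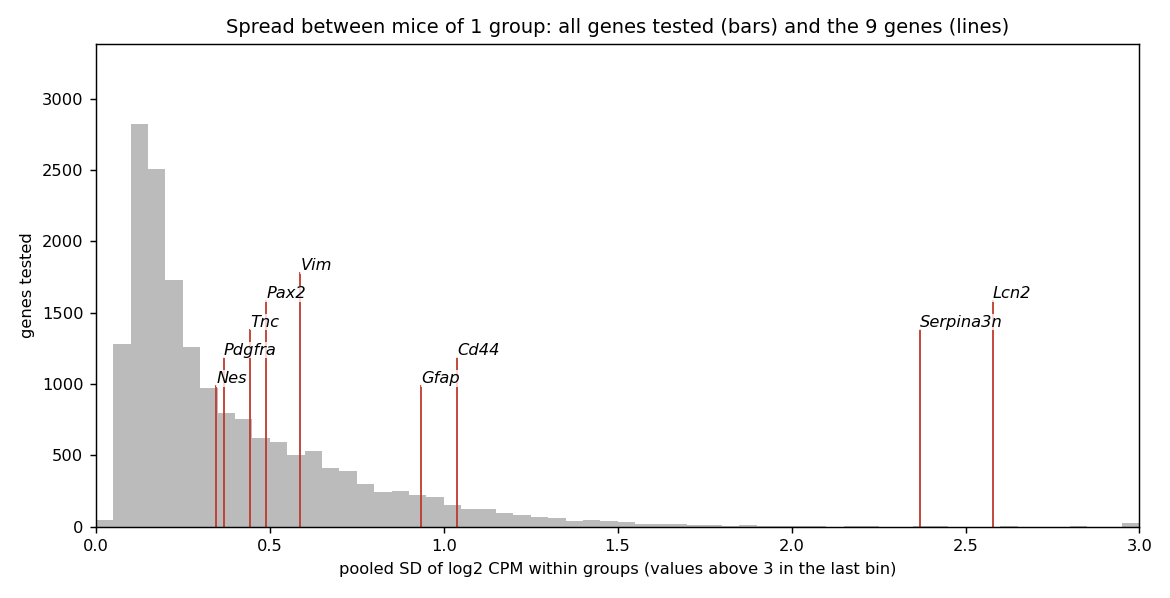
Number of genes tested (vertical axis) by the pooled SD of log2 CPM within the 3 groups (horizontal axis), with red lines for the 9 genes. Lcn2 and Serpina3n lie at the far right, at 2.58 and 2.37, and Nes and Pdgfra nearest to the bulk of genes, at 0.35 and 0.37.

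The genes whose log2 CPM followed Gfap most closely across the 9 mice, among 13977 genes compared, were Tnfrsf1a, S1pr2, A2m, Hadh, and Cyp4v3. Tnfrsf1a encodes a receptor of tumor necrosis factor, S1pr2 a receptor of sphingosine 1-phosphate, and A2m a secreted protease inhibitor. Pearson's r was 0.995, 0.986, 0.982, 0.981, and 0.980 in that order, as a description over 9 mice that differ in library depth and condition. Differences between the groups therefore enter r. All 5 were highest in OIR mouse 6 and lowest in control mouse 7. A2m ranged from 20.8 to 467 CPM, and Tnfrsf1a from 14.0 to 89.3 CPM. Among the members r with Gfap was 0.94 for Cd44, 0.87 for Serpina3n and Vim, 0.82 for Lcn2, 0.68 for Nes, 0.54 for Pdgfra, 0.32 for Tnc, and 0.27 for Pax2. Many of the 13977 genes followed Gfap more closely than these did. The number with a higher r was 69 for Cd44, 345 for Serpina3n, 370 for Vim, and 717 for Lcn2. It was 1836 for Nes, 3010 for Pdgfra, 4836 for Tnc, and 5208 for Pax2.

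Other genes of the pathway were read from lists. In the list of signals upstream of Gfap, with their receptors, Stat3, and its target Socs3, 7 of 10 genes were tested. None passed in any comparison. All 7 had a log2 fold change above 0 in OIR against control (median 1.21), as did 53.5% of all genes tested. The highest was Socs3, a feedback inhibitor induced by STAT3, with 13.6, 12.4, and 6.00 CPM in control, 15.8, 38.1, and 113 CPM in OIR, and 126, 9.02, and 5.60 CPM in treated OIR mice (log2 fold change 2.37, SE 1.14, edgeR adjusted p = 0.244). Socs3 thus showed the same high mice as Lcn2, OIR mouse 6 and treated OIR mouse 2. The lowest was Lifr, the receptor of leukemia inhibitory factor, at 0.49 (SE 0.13, edgeR adjusted p = 0.0845), and Il6 was at 0 counts in every mouse. The median of the list was 1.09 in treated OIR against control and -0.25 in treated OIR against OIR.

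Of 8 further genes of reactive astrocytes of any kind, none passed in any comparison. The median was 1.16 in OIR and 0.77 in treated OIR against control, between Steap4 (1.65, SE 1.15) and Cxcl10 (-0.72, SE 0.98) in the former. Steap4, a metalloreductase, was at 31.6 CPM in OIR mouse 6 and 19.5 CPM in treated OIR mouse 2, and at 0.859 to 7.54 CPM in the others. The genes tied to neuroinflammatory reactive astrocytes (11 of 12 tested) had a median of 0.25 in OIR against control, from Iigp1 (-1.01) to the complement inhibitor Serping1 (1.89, SE 0.91, edgeR adjusted p = 0.246). Those tied to ischemia (11 of 12 tested) had a median of 0.42, from Cd14 (-0.93) to Tgm1 (1.30). None of either list passed in any comparison.

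Astrocyte genes not among the members went both ways in OIR against control. Of 12 tested, 1 rose and 1 fell, where 0.941% of all genes passed in either direction. Both calls were lost in 7 of the 9 fits that left out a mouse. They were also lost with sex as a covariate, with total counts alone (edgeR adjusted p = 0.0512 for each), and with a limit on fold change. Slc1a3, the glutamate transporter of astrocytes and Müller glia, rose from 157, 178, and 151 CPM in control mice 1, 6, and 7 to 290, 261, and 390 CPM in OIR mice 3, 5, and 6 (log2 fold change 0.95, SE 0.16, edgeR adjusted p = 0.0447). Aldoc, a glycolytic enzyme of glia, fell from 690.5, 759, and 889 CPM to 473, 438, and 410 CPM (log2 fold change -0.82, SE 0.13, edgeR adjusted p = 0.0407). Over all alternatives the adjusted p reached 0.18 for Slc1a3 and 0.17 for Aldoc, and their log2 fold changes stayed at 0.77 to 1.07 and -0.91 to -0.71. Both were called when treated OIR mouse 2 or 10 was left out, and were lost without any of the other 7 mice. In treated OIR mice Slc1a3 was at 286, 233, and 232 CPM and Aldoc at 532, 566, and 502 CPM, between OIR and control apart from an overlap of Slc1a3 with OIR in mouse 2, and none of the list passed against either group. The median of the list was 0.48 in OIR against control, 0.15 in treated OIR against control, and -0.21 in treated OIR against OIR.

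None of 10 Müller glia genes passed in any comparison, and their median was 0.19 in OIR and -0.33 in treated OIR against control. The lipid carrier gene Apoe (0.75) and the GABA transporter gene Slc6a11 (-0.30) were the highest and lowest in OIR against control. The summed Müller glia list was 9903 to 12290 CPM in OIR mice, above 8350 to 9101 CPM in control and 6704 to 8134 CPM in treated OIR mice, and mouse 2 was the lowest of these. Without Apoe the sums were 6715 to 7427 CPM in OIR, 5421 to 6878 CPM in control, and 5114 to 6261 CPM in treated OIR mice, so that OIR and control overlapped. Among the ligands, receptors, and partners of the members, 14 of 15 were tested and none passed, with a median of 0.19. The integrin gene Itga9, whose product binds tenascin-C, was the highest (1.13) and Spp1, which encodes the Cd44 ligand osteopontin, the lowest (-1.89). Spp1 was at 1675 CPM in control mouse 1 and at most 313 CPM in any other mouse. Of the endothelial and pericyte genes 1 of 8 passed in OIR against control, where 0.941% of all genes did. It was Kdr, the VEGF receptor, which rose (log2 fold change 1.10, SE 0.17, edgeR adjusted p = 0.0407). The call of Kdr was likewise lost without each of those 7 mice and with sex as a covariate, with an adjusted p of up to 0.163 and a log2 fold change of at least 0.97.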

How the data were processed

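Retinal RNA of 9 mice was sequenced, and each mouse was taken as 1 replicate. Groups were taken from the labels. The authors deposited unnormalized whole-number counts for each gene. The submitters' processing notes name CASAVA and HISAT. Versions, the counting tool, its use of strand, and the annotation are not given in the sources used here. Coordinates are those of the deposited table. They are taken as GRCm38, because 98.3% of identifiers in both sources are placed identically in GENCODE M21. No 2 mice of a group shared more than 1.38% of counts over the genes tested.

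Counts were fitted with edgeR 4.0.16 in R 4.3.3, with TMM factors, the default filter by group, and 1 mean per group over all 9 mice. Adjusted p-values (Benjamini-Hochberg) are over all genes tested. Log2 CPM used a prior count of 2. The RNA of the mice of a group came from independent isolations. Alternatives were DESeq2 1.42.0, limma 3.58.1 (voom with sample weights), edgeR on 2 groups, other scalings and filters, a limit on fold change, crystallin genes left out, sex as a covariate, and leaving out each mouse. The fits were tested on simulated data. Counts of members whose groups do not overlap, under other scalings and without treated OIR mouse 2 or control mouse 1, were added after the data were seen. All 9 members are named in every comparison. From other lists, genes named are those called, or else the highest and lowest in OIR against control. Rbpms, Il6, Steap4, the oligodendrocyte genes, the neutrophil genes, and the endothelial and pericyte genes are given for their levels. Members and lists were chosen with earlier results of these data known. Promoters were matched by symbol for all 9 members. Plots used matplotlib 3.10.9 and tables pandas 2.3.3, in Python 3.11.15.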

Additional observations from a re-analysis of the deposited data

How the results depend on the processing

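No paired analysis was possible because the groups hold different mice and the labels name no pairs. Of the 9 members, 0 were called in the reported fits. In OIR against control, 1 was called with no filter, with edgeR on the 2 groups, with DESeq2 on all 9 mice, and with limma-voom, and 3 with DESeq2 on the 2 groups. Leaving out each mouse gave 0 to 2, the latter without treated OIR mouse 2 (Nes and Cd44). In treated OIR against control, 1 was called with either DESeq2 fit and with limma-voom, and 0 whichever mouse was left out. Over all genes, OIR against control gave 165 calls, and 37 with total counts alone, 532 with no filter, 376 with 10 counts in every mouse, 1771 with edgeR on the 2 groups, 1977 and 2683 with DESeq2 on all mice and on the 2 groups, 2305 with limma-voom, 0 with sex as a covariate, 53 with a limit on fold change, and 0 to 2272 when a mouse was left out (0 in 7 of 9 such fits). Treated OIR against control gave 4, and 0 with crystallin genes left out, 18 with no filter, 0 with edgeR on the 2 groups, 842 and 374 with DESeq2, 926 with limma-voom, 0 with sex as a covariate, and 0 to 6 when a mouse was left out. Treated OIR against OIR gave 0, and 1 with no filter, 31 and 73 with DESeq2, 1 with limma-voom, and 0 when a mouse was left out (428 to 2362 at an unadjusted p below 0.05). The cause of these differences was not tested.

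Directions changed mostly in treated OIR against OIR, where 32 of 180 alternative values did, against 2 in OIR against control and 6 in treated OIR against control. With limma-voom, log2 fold changes against OIR became -0.28 for Vim, -0.017 for Nes, -2.13 for Serpina3n, -3.24 for Lcn2, 0.13 for Pax2, and -0.016 for Pdgfra, and against control -1.39 for Serpina3n and -2.19 for Lcn2. With sex as a covariate they became -0.21 for Vim, -1.70 for Serpina3n, -0.11 for Lcn2, 0.045 for Pax2, and -0.16 for Pdgfra against OIR, and -0.016 for Serpina3n against control. With total counts alone they became -0.054 for Vim, -0.15 for Serpina3n, and -0.11 for Pdgfra against OIR, and Pdgfra was at -0.019 with upper-quartile scaling and -0.0071 with no filter. Leaving out each mouse, the ranges against OIR were -1.50 to 0.41 for Cd44, -4.45 to 2.24 for Lcn2, -0.093 to 0.38 for Nes, -0.41 to 0.20 for Pax2, -0.17 to 0.30 for Pdgfra, -3.17 to 1.44 for Serpina3n, and -0.43 to 0.37 for Vim. Those of treated OIR against control were -0.056 to 1.06 for Gfap, -2.62 to 3.27 for Lcn2, and -2.62 to 2.10 for Serpina3n. Those of OIR against control were -0.72 to 1.97 for Serpina3n and -0.56 to 0.18 for Tnc. A prior count of 0.5 moved no group mean of log2 CPM by as much as 1 SD. Depth limited Pax2 alone among the members.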
